A study of Mus musculus and Ictidomys tridecemlineatus with 36 samples.

Results

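The 135798 regions described here are the peaks of histone H3 lysine 4 monomethylation (H3K4me1) called over the IgG control in postnatal day (P) 2 mouse retina, and every region of that peak list was taken, out of 532904 regions in the 10 peak lists of the series. The series profiled P2 mouse and P5 13-lined ground squirrel (13LGS) retina by CUT&RUN, in which an antibody bound to chromatin in intact nuclei directs a nuclease that releases the DNA around it, and holds 36 libraries in 12 groups. The H3K4me1 group is 2 mouse libraries, 1 for each of 2 biological replicates, and the control group is 2 mouse libraries made with a non-specific IgG from the same number of biological replicates. Both groups used nuclei from snap-frozen whole retina, each replicate being a pool of retinas from 3 individuals, with no treatment, and the labels give no genotype, strain or sex for them. The nuclei were not sorted, so a peak averages all the cell types of the tissue, and a signal in few cells cannot be told apart from a weak one in many. The deposited list holds 1 value per peak for the pooled libraries, so no spread between replicates can be given and no test between samples was possible. Read depth is unknown.

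H3K4me1 is laid down by the methyltransferases Kmt2c and Kmt2d and is found at enhancers, both active and not yet active, and on the flanks of promoters, whose centres carry the trimethylated form, H3K4me3. Acetylation of H3 lysine 27 (H3K27ac) is added at enhancers and promoters in use. At P2, the mouse retina still holds late-stage retinal progenitor cells (RPCs), which are giving rise to rods, bipolar cells and Müller glia, beside cones, ganglion, amacrine and horizontal cells born earlier. Otx2 and Neurod1, profiled in the same retinas, are transcription factors (TFs) of photoreceptor precursors: Otx2 belongs with Crx to the homeodomain TFs that recognise TAATCC, and Neurod1 is a basic helix-loop-helix (bHLH) TF that recognises the E-box CAGATG.

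The regions lay in the genome as the following sequences show, read from RefSeq GRCm38.p6, the build of the peak coordinates, on the plus strand and 5′ to 3′. The first set is shown because it holds the summits, the points of highest signal, of the 2 peaks with the highest fold enrichment, and is named by the nearest protein-coding gene start. Each is 151 bp centred on the H3K4me1 summit, and TAATCC and CAGATG each occur 0 times in them on either strand. The peak nearest *Etv1*, which encodes an ETS-family TF, had a fold enrichment of 50.1 and lay in an intron of *Dgkb*, 234 kb from the *Etv1* start. That nearest *Cetn3*, 277 kb away, had 49.0 and was intergenic.
*Etv1*, chr12:38545656-38545806: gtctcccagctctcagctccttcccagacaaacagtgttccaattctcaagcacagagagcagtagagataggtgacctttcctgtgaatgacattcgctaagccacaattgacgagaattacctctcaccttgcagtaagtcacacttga
*Cetn3*, chr13:82060105-82060255: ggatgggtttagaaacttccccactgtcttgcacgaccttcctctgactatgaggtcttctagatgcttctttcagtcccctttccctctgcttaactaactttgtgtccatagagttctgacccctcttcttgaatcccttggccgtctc

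The second set is shown because it places an Otx2 motif in H3K4me1-marked chromatin at genes of progenitors and photoreceptors. Each is 101 bp around the TAATCC (or its reverse complement GGATTA, in capitals) nearest the summit of an Otx2 peak inside an H3K4me1 peak that overlapped no H3K4me3, within 50 kb of the gene start, so the motif is there by choice. All lie inside the named gene and are intronic. Windows touching an annotated exon of a protein-coding gene were passed over, so the 0 exons in them is also by choice. At *Casz1*, a zinc finger TF of late-stage RPCs, the site lay 40.7 kb downstream of the start under H3K4me1 of 14.6-fold and 106 bp from an Otx2 summit of 6.53-fold. At *Meis1*, a homeodomain TF of progenitors, it lay 25.9 kb downstream under H3K4me1 of 23.1-fold, 158 bp from an Otx2 summit of 5.01-fold and 82 bp from the H3K4me1 summit. At *Gnat1*, the rod transducin alpha subunit, it lay 3.88 kb downstream under H3K4me1 of 3.42-fold and 137 bp from an Otx2 summit of 3.20-fold.
*Casz1*, chr4:148845090-148845190: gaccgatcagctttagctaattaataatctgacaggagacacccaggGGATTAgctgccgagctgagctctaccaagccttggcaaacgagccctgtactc
*Meis1*, chr11:18992993-18993093: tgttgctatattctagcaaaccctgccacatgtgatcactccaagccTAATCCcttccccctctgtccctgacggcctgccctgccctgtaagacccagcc
*Gnat1*, chr9:107675779-107675879: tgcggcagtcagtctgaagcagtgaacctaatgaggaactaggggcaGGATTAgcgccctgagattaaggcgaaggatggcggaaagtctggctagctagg

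The third set was chosen in the same way for Neurod1, with CAGATG or CATCTG in capitals. The site near *Neurod4*, a bHLH TF of neurogenic progenitors, was intergenic and also holds 1 TAATCC in reverse, 16.9 kb downstream of the start under H3K4me1 of 14.9-fold, and 91 bp from a Neurod1 summit of 4.01-fold. The site near *Neurod1* itself lay in an intron of *Cerkl*, 42.0 kb downstream of the *Neurod1* start, under H3K4me1 of 14.0-fold and 93 bp from a Neurod1 summit of 3.90-fold. The site near *Insm1*, a zinc finger TF of neurogenic progenitors, lay in an intron of *Ralgapa2*, 35.3 kb downstream, under H3K4me1 of 14.2-fold and 82 bp from a Neurod1 summit of 3.11-fold.
*Neurod4*, chr10:130263255-130263355: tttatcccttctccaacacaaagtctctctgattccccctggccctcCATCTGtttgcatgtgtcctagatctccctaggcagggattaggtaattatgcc
*Neurod1*, chr2:79414674-79414774: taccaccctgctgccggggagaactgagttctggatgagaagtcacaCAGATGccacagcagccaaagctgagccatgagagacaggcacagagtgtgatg
*Insm1*, chr2:146257182-146257282: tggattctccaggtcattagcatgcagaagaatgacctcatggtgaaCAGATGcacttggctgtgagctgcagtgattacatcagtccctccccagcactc

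The H3K4me1 regions were many and mostly narrow, with a tail of broad domains. They covered 177 Mb, which is 6.69% of the mouse genome without unsequenced bases. Widths ran from 190 to 37533 bp with a median of 805 bp (95% interval of the median 798 to 811), and 10% of the peaks were wider than 2881 bp. The 493 peaks wider than 10 kb were 0.363% of the list and held 3.75% of its bases, and the widest 10% held 36.5%. Peaks this wide were rare in the other mouse lists, with 11 for H3K4me3, 23 for H3K27ac and 0 for Otx2 and Neurod1. The fold enrichment over IgG, a ratio given for each peak, ran from 1.58 to 50.1 with a median of 4.25 (95% interval 4.24 to 4.26). This was below the median of 13.5 for H3K4me3 and above those of 3.36 for H3K27ac, 3.54 for Otx2 and 3.78 for Neurod1. Stronger peaks were wider (Spearman's rho 0.80 across 135798 peaks, which come from the same libraries). All intervals here cover counting error only.

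H3K4me1 lay mostly away from gene starts. The summit was within 1 kb of the nearest start of a protein-coding gene for 9787 peaks (7.21%, 95% Wilson interval 7.07 to 7.35), at 1 to 10 kb for 17.7%, at 10 to 100 kb for 42.2% and farther for 44642 peaks (32.9%, 32.6 to 33.1). The median distance was 46972 bp. Otx2 summits lay closer, with 32.7% within 1 kb. H3K4me3, the promoter mark, had 69.7% (69.0 to 70.5) of its summits within 1 kb, and H3K27ac had 5.00% (4.83 to 5.17). At 1 to 10 kb, H3K4me1 had 17.7% against 7.54% for H3K27ac. With the starts of all annotated transcripts in place of 1 start per gene, the share of H3K4me1 within 1 kb was 12.04%. Introns of protein-coding genes held 55.7% of the covered bases, against 35.7% of the genome. Exons held 5.57% against 3.63%, and the space between genes 38.7% against 60.7%.

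**Figure D1:**
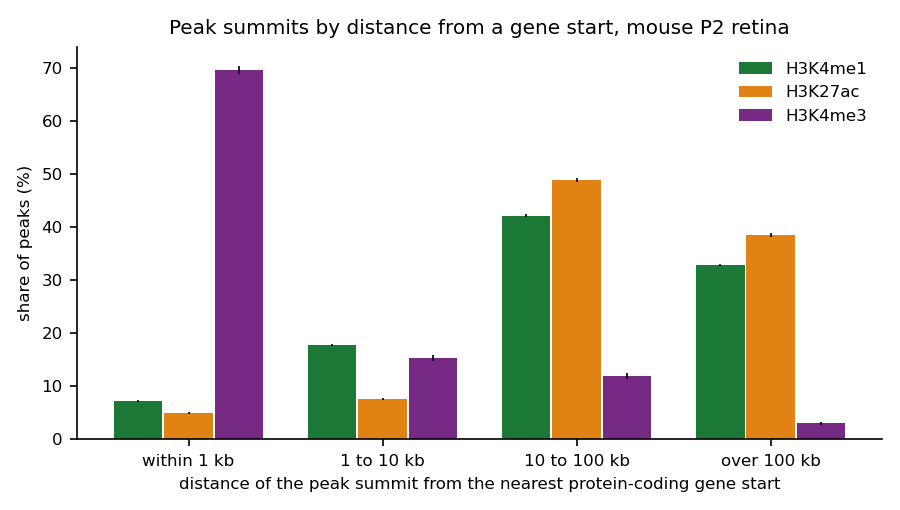
Share of peaks (y axis, percent) by distance of the summit from the nearest protein-coding gene start (x axis, 4 classes) for 135798 H3K4me1, 62930 H3K27ac and 14069 H3K4me3 peaks of P2 mouse retina, with 95% Wilson intervals as bars. The H3K4me1 columns stand at 7.21% within 1 kb and 42.2% at 10 to 100 kb, whereas H3K4me3 stands at 69.7% within 1 kb.

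At promoters, H3K4me1 lay beside H3K4me3 rather than under its summit, and more often on the side of the gene body. An H3K4me1 peak overlapped 88.1% (87.6 to 88.7) of the 14069 H3K4me3 peaks but covered only 39.5% (38.7 to 40.3) of their summits. Around the 9812 H3K4me3 summits within 1 kb of a gene start, read in the direction of transcription, cover was 7.02% at 5000 bp upstream and reached 37.2% at 700 bp upstream. Within 600 bp of the summit it was lowest, 26.4%, at 200 bp upstream, and it reached 68.8% at 900 bp downstream, and 15.6% at 5000 bp downstream. Of the 15515 H3K4me1 summits whose nearest such H3K4me3 summit was within 3 kb, 9514 (61.3%) were downstream.

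H3K4me1 covered fewer summits where H3K4me3 was broad. At the 3267 summits of H3K4me3 peaks wider than 1795 bp, H3K4me1 covered 17.4% of the summits themselves, 13.1% of positions 200 bp upstream, 50.02% at 1200 bp upstream and 80.5% at 1200 bp downstream. At the 3270 summits of H3K4me3 peaks narrower than 1183 bp, it covered 50.7% of the summits themselves, 39.8% of positions 600 bp upstream and 63.6% of positions 600 bp downstream, and within 600 bp of the summit no value was below that at 600 bp upstream. Promoter H3K4me3 peaks that overlapped H3K27ac (2637) had H3K4me1 at 76.1% of positions 1000 bp downstream, against 65.6% for the 7175 that did not. The 10298 gene starts under an H3K4me3 peak had H3K4me1 within 1 kb in 87.0% of cases, and the 11640 others in 31.6%. These are descriptions of single pooled lists, and a wider H3K4me3 peak moves its own flanks outward by construction.

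**Figure D2:**
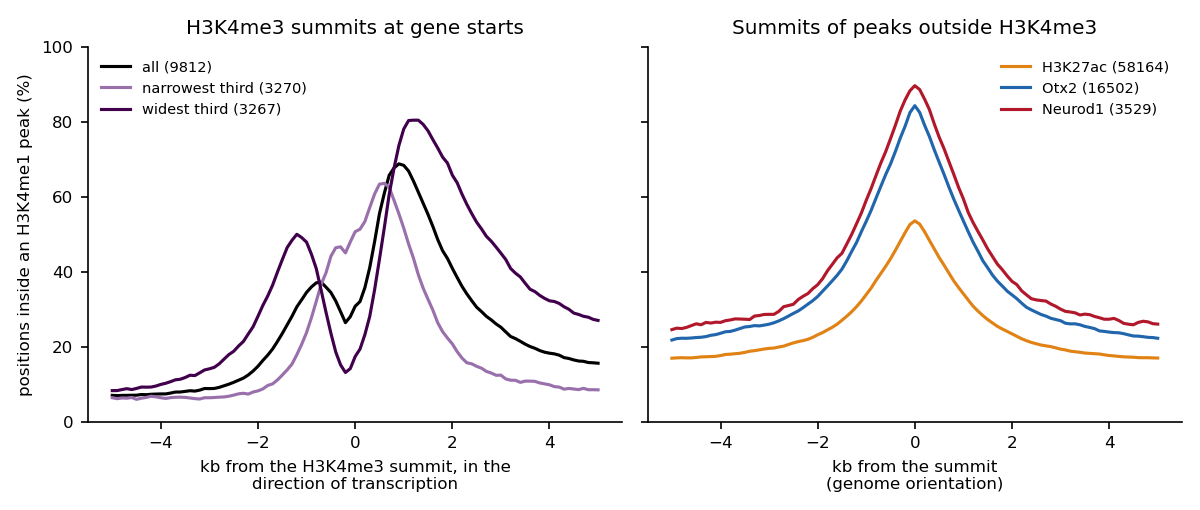
Share of positions inside an H3K4me1 peak (y axis, percent) by distance in kb from the summits of other peaks (x axis). The left panel is oriented by transcription and shows 9812 H3K4me3 summits at gene starts, with the 3270 narrowest and 3267 widest peaks apart, and falls to 26.4% just upstream of the summit. The right panel shows peaks outside H3K4me3, centred on their own summits, where cover reaches 53.6% for H3K27ac, 84.3% for Otx2 and 89.7% for Neurod1.

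Away from H3K4me3, most TF summits lay inside H3K4me1. Of the 16502 Otx2 summits of peaks without H3K4me3, 13918 (84.3%, 83.8 to 84.9) were inside an H3K4me1 peak, as were 3165 of 3529 Neurod1 summits (89.7%, 88.6 to 90.6). For H3K27ac the count was 31174 of 58164 (53.6%, 53.19 to 54.002), and 67.4% of all H3K27ac peaks had a −log10 q-value under 5, against 33.0% of H3K4me1 peaks. At 5000 bp before these summits, in genome orientation, cover was 21.8% for Otx2, 24.6% for Neurod1 and 16.9% for H3K27ac. Within the marked regions, 68.5% of the Otx2 summits and 70.6% of the Neurod1 summits were within 500 bp of the H3K4me1 summit. For H3K27ac summits the share was 64.9%. In a peak of up to 500 bp every position meets this distance by construction, and the share for other positions was not measured.

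Seen from the H3K4me1 list, 64.2% (64.0 to 64.5) of the peaks, 87220 in number, overlapped no peak of the other 4 mouse lists, and these were the weaker and narrower ones. Their median fold was 3.73 (3.70 to 3.74) and their median width 578 bp (574 to 583), and they held 42.2% of the covered bases. H3K27ac overlapped 21.5% of the H3K4me1 peaks, Otx2 15.97%, H3K4me3 12.1% and Neurod1 2.82%. Among the peaks outside H3K4me3, the 19267 with H3K27ac alone had a median fold of 6.74 (6.63 to 6.82) and a width of 1465 bp, and the 5765 with Otx2 alone had 5.88 (5.78 to 6.01) and 1433 bp. The 4284 with both H3K27ac and Otx2 had the highest median among the classes of over 1000 peaks, 11.9 (11.7 to 12.2), and a width of 3216.5 bp (3153 to 3300). The 1563 that also overlapped Neurod1 had 9.36 (9.01 to 9.71) and 3248 bp (3089 to 3392). At promoters, peaks that overlapped H3K4me3 alone had 4.59 (4.53 to 4.66) and 1078 bp. A wider peak has more room to overlap another. Among the 34007 narrowest H3K4me1 peaks (190 to 391 bp), 6.91% overlapped H3K27ac and 5.40% Otx2. Among the 33948 widest (1642 to 37533 bp), 46.6% overlapped H3K27ac and 35.1% Otx2. The classes above were not compared at like width, so the part of width in these shares was not tested.

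The strongest H3K4me1 lay far from gene starts and mostly overlapped H3K27ac. In the 34216 peaks of lowest fold (1.58 to 3.17), 7.75% overlapped H3K27ac and 8.03% Otx2. In the 33908 of highest fold (6.78 to 50.1), 47.7% overlapped H3K27ac and 30.5% Otx2, whereas H3K4me3 overlapped 9.11% of the former and 14.3% of the latter. The median width of these groups was 339 and 2318 bp. The H3K27ac and Otx2 shares rose with width, as given above, as well as with fold. The part of fold apart from width was not tested. Among the 1000 peaks of highest fold, all of at least 23.4, 86.3% overlapped H3K27ac, 51.5% Otx2 and 6.90% H3K4me3, and 95.6% had their summit over 10 kb from a gene start, at a median of 136130 bp.

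**Figure D3:**
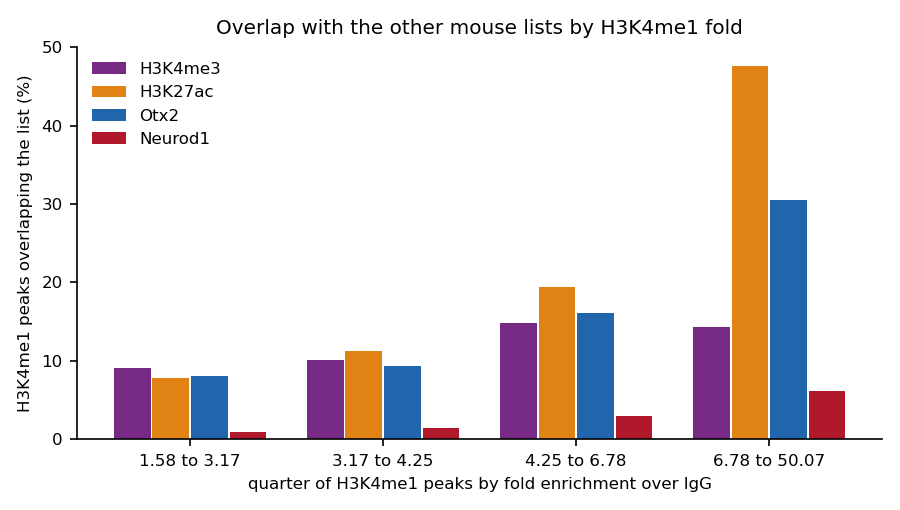
Share of H3K4me1 peaks that overlap a peak of each other mouse list by at least 1 bp (y axis, percent) in 4 groups of H3K4me1 peaks by fold enrichment over IgG (x axis). The H3K27ac column stands at 7.75% in the lowest group and 47.7% in the highest. The median peak width is 339 bp in the lowest group and 2318 bp in the highest.

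The 15 peaks of highest fold, from 38.8 to 50.1, of which 6 had their summit in an intron, all overlapped H3K27ac, none overlapped H3K4me3, 10 overlapped Otx2 and 1 overlapped Neurod1. Beside the 2 printed above, the peak 246 kb from *Nr2f1*, a nuclear receptor of early retinal patterning, had 44.4-fold over 9748 bp. A peak in an intron of *Nrip1*, a nuclear receptor corepressor, had 43.5-fold and an Otx2 peak beneath it. In an intron of *Epha5*, an ephrin receptor of retinal axon mapping, the value was 40.9, and in an intron of *Cdh2*, N-cadherin, it was 39.3. *Tox*, a high-mobility-group TF, was nearest to a peak of 40.5-fold at 590 kb. The nearest gene is a label of position only.

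The widest regions had their summits in introns. After a 37533-bp peak on chromosome X in *Mid1*, a gene at the pseudoautosomal boundary, came 32357 bp in *Tox2*, 32330 and 25159 bp in *Ccdc85c*, 30648 bp in *Casz1*, 29982 bp in *Tox* and 28928 bp in *Lrp8*, a reelin receptor. *Rorb*, a nuclear receptor needed for rods, held 24379 bp, and *Nfix*, a late-stage RPC factor, held 23806 bp. All 15 of the widest had their summit in an intron and overlapped H3K27ac and Otx2, 8 overlapped Neurod1 and 5 overlapped H3K4me3. Their folds ran from 6.78, in *Pmepa1*, to 34.7, in *Tox*.

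The peaks were also gathered by gene. Of 21938 protein-coding genes, 68.4% had at least 1 peak over their interval, and the number followed gene length (Spearman's rho 0.67 across genes, which are not independent). *Gm20388* (374 peaks) and *Gm37240* (145) are models that span their neighbours, and *Fgfr2* (266) has an interval of 2960900 bp in the annotation used and of 104358 bp in RefSeq, where it leaves the first 15. With RefSeq intervals the first 3 genes were *Robo2*, an axon guidance receptor, with 187 peaks, *Lsamp* with 174 and *Tenm2* with 169, and *Robo2* was also second by bases with 243800. The other genes with the most peaks in the annotation used were long. *Lsamp* had 174, *Tenm2* 168, *Wwox* 139, *Ntm* 139, *Celf2* 139, *Pde4d* 130, *Macrod2* 129, *Prkg1* 121, *Ptprg* 120, *Nlgn1* 114, *Nrxn3* 113 and *Ctnna2* 113. *Lsamp* and *Ntm* encode cell adhesion molecules of one family, *Tenm2* a teneurin and *Nlgn1* and *Nrxn3* a neuroligin and a neurexin. In *Lsamp*, the peaks covered 11.0% of the gene.

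By bases, shorter genes with dense cover came up. *Gse1*, which encodes a coiled-coil protein of corepressor complexes, had 242570 bases covered, 68.7% of its interval. *Msi2*, an RNA-binding protein of neural progenitors, had 228047 (60.1%), *Ppp3ca*, a calcineurin catalytic subunit, 175263 (65.5%), *Arid1b*, a chromatin remodeller subunit, 184542 (52.2%), and *Sorcs2* 185471 (48.7%). *Tenm2* had 249331 bases but 20.3% cover. Ranked by density instead of sum, none of the first 15 genes stayed, either for peaks or for bases.

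Among the 17798 genes of at least 5 kb, 9 lay wholly inside H3K4me1 peaks: *Nxph4*, *Fezf2*, *Rhoc*, *Lrrtm2*, *Barhl2*, *Dmrta2*, *Tril*, *Shmt2* and *Gm4792*. *Fezf2*, *Barhl2* and *Dmrta2* encode developmental TFs, Barhl2 being one of amacrine and ganglion cells. *Nxph4* and *Shmt2* are neighbours and share a window. *Foxo6* was the longest of the 15 densest, with 19744 of 20271 bases covered.

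To compare genes at 1 length, the bases covered within 50 kb on each side of the gene start were taken. The median over all protein-coding genes was 6.11%, and 14.8% had none. *Zfp608* had the most, 70725 bases, followed by *Tox2* with 68053, *Gnat1* with 67606, *Flrt1* with 66275, *Ankrd33b* with 65751, *Lrrc4* (169917 bp in the annotation used, 3622 bp in RefSeq) with 65160 and *Ccdc85c* with 63664. *Flrt1* is 13729 bp long in the annotation used and 78720 bp in RefSeq, and its window on the RefSeq start was not measured. *Slc38a3*, with 62461, shares its window with *Gnat1*. *Klf13* had 61431, and *Notch1*, the receptor that holds progenitors undifferentiated, 58100. In fixed windows of 100 kb along the genome, the median was 3570 bases and the fullest were in *Zfp608* (88252), *Ppp3ca* (85960), *Casz1* (84801), *Chd7* (83151), *Msi2* (83046), *Rorb* (82017) and *Meis1* (81841). The densest 1% of windows held 7.82% of all covered bases, and 23.2% of windows held no peak.

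Genes were then read by role, in lists of retinal and other cell types. Beside each list stand 4 measures over all protein-coding genes: 46.9% had their start under an H3K4me3 peak, 57.6% had an H3K4me1 peak within 1 kb of the start, 10.0% are by definition in the upper 10% by cover within 50 kb (over 18.95% covered), and 38.7% had no H3K27ac peak within 50 kb. Genes that lie near each other share a window. The progenitor and eye field factors had the highest median cover, 33.4%, with 14 of 15 in the upper 10% and a peak at 13 of 15 starts. The highest were *Pax6*, the paired homeodomain TF of the eye field, with 54.1%, and *Meis1* with 51.2%. The lowest were *Six6*, with 16.4%, and *Fgf15*, an RPC growth factor, with 23.3%. *Sox2* had 45.1%, *Nr2e1* 36.2%, *Six3* 35.9%, *Rax* 33.4% and *Lhx2* 27.8%.

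The neurogenic bHLH and Notch pathway genes had a median of 28.8%, with 12 of 14 in the upper 10% and a peak at 14 of 14 starts. *Notch1* had 58.1% and *Neurod4* 55.8%, and 94.7% of the *Neurod4* gene itself was covered. *Insm1* had 38.8%, *Neurod1* 38.0%, *Olig2* 35.2%, and *Neurog2* 28.7%. *Atoh7*, the ganglion cell competence factor, was lowest with 9.82%, then *Dll3* with 14.1%.

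The temporal identity factors, a list of both early-stage and late-stage RPC factors, were split. The median was 28.7% and 10 of 10 starts had a peak, but 6 of 10 were in the upper 10%. *Casz1* had 55.9%, with 86.7% of its 150461-bp interval covered, *Sox8* 50.7%, *Nfix* 43.9%, *Foxn4* 30.7%, *Nfib* 30.4% and *Nfia* 26.97%. *Ikzf1*, known from early-stage RPCs, had 3.32%, *Lin28b* 7.74%, *Foxp1* 8.14% and *Ikzf4* 8.80%. In *Nfib*, 77 peaks covered 38.5% of the gene.

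Photoreceptor TFs had a median of 14.0%, with a peak at 11 of 14 starts and 5 of 14 in the upper 10%. *Rorb* had 49.6%, *Prdm1*, which favours photoreceptor over bipolar fate, 35.7%, *Otx2* 26.8%, *Crx* 22.0% and *Samd7* 21.5%. *Nrl*, which specifies rods, had 17.2%, with 5 peaks over a gene of 6004 bp. The cone-associated *Thrb* had 11.3%, *Rxrg* 11.7%, and *Sall3* 12.2%. *Nr2e3*, which represses cone genes in rods, was lowest with 3.26%, then *Mef2c* with 6.42%. *Rora* had 93 peaks over its 734461 bp and 8.05% around its start.

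Rod phototransduction genes had a median of 5.88%, with 2 of 14 in the upper 10%. Within 10 kb of the start, however, their median was 20.4% against 8.11% for all genes, so the list lay below the all-gene level in the wide window and above it in the narrow one. In this list 11 of 14 starts had a peak and 2 of 14 were under H3K4me3. *Gnat1* had 67.6% and *Cngb1*, a subunit of the rod cyclic nucleotide-gated channel, 17.1%. The lowest were *Rcvrn*, recoverin, with 2.92% and *Grk1* with 3.08%. Cone phototransduction genes had a median of 7.25%, with 9 of 12 starts marked and 1 of 12 in the upper 10%, and 26.7% within 10 kb. *Gnb3*, the cone transducin beta subunit, had 26.8% and *Gnat2* 18.6%. *Opn1sw*, short-wavelength opsin, had 18.2% and *Opn1mw*, on chromosome X, 5.08%. *Pde6h* had 2.33%. Bipolar cell genes had 10.5%, with 10 of 12 starts marked, 2 of 12 under H3K4me3 and 1 of 12 in the upper 10%, *Lhx4* with 42.0%.

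**Figure D4:**
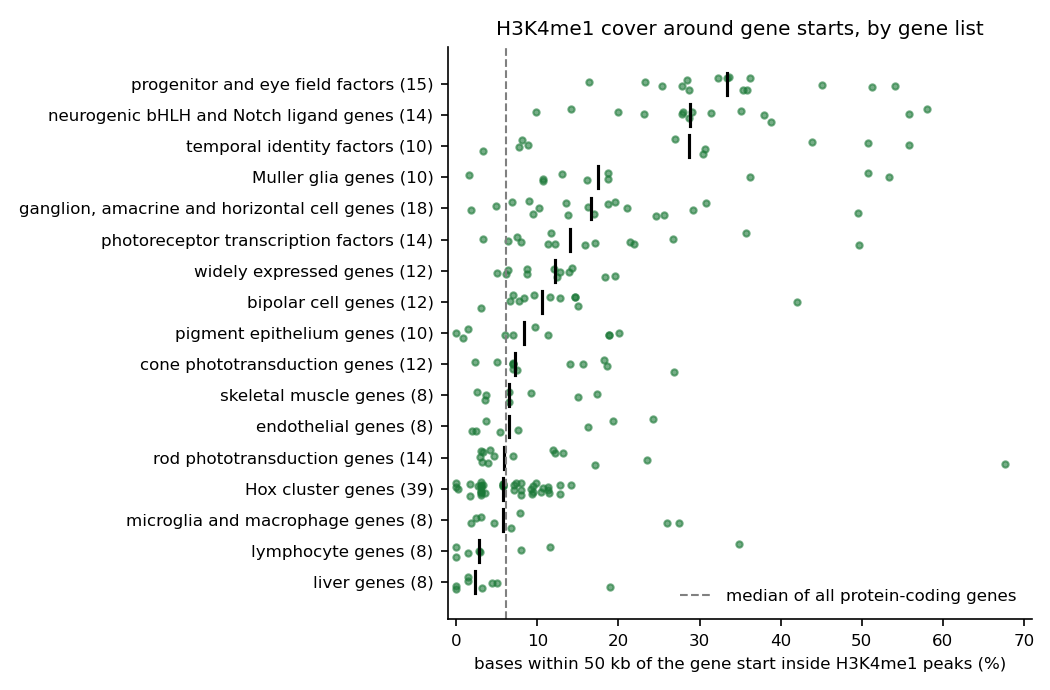
Share of bases within 50 kb on each side of the gene start that lie inside H3K4me1 peaks (x axis, percent) for each gene (points) of 17 lists (y axis, number of genes in brackets), with the list median (black bar) and the median of all protein-coding genes, 6.11% (dashed line). The progenitor, neurogenic and temporal identity lists have medians from 28.7 to 33.4%.

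The genes of ganglion, amacrine and horizontal cells had H3K4me1 but often no H3K27ac nearby. Their median cover was 16.7%, with 15 of 18 starts marked and 7 of 18 in the upper 10%. An H3K27ac peak was missing within 50 kb for 11 of 18, against 38.7% over all genes. This was not particular to the list. Among the other neural retina lists the count ran from 0 of 14 (neurogenic) to 6 of 12 (cone phototransduction), with 4 of 12 for bipolar cell genes. In the liver list it was 4 of 8. *Prox1*, of horizontal and AII amacrine cells, had 49.5% with 9 H3K27ac peaks. *Ptf1a*, the amacrine and horizontal cell determinant, had 30.8%, *Tfap2a* 29.2%, *Tfap2b* 25.6% and *Ebf1* 24.7%, all with 0 H3K27ac peaks. The strongest H3K4me1 near *Ptf1a* was 19.99-fold over 12888 bp, and near *Tfap2b* 18.7-fold over 7784 bp. *Calb1* (1.81%) and *Sncg* (4.86%) were lowest. Müller glia genes, known to be shared with RPCs in part, had a median of 17.4%, with 8 of 10 starts marked, 3 of 10 in the upper 10% and 0 of 10 without H3K27ac. *Kcnj10* had 53.4%, *Dkk3* 50.8%, *Slc1a3* 36.3%, *Aqp4* 10.8%, *Glul* 10.7% and *Abca8a* 1.56%.

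Lists of cells outside the neural retina, and of widely expressed genes, were read in the same way, as a description only. Pigment epithelium genes had a peak at 7 of 10 starts and a median of 8.36%, with *Dct* at 20.02%, *Best1* at 18.9%, *Tyr* at 0.813% and *Rpe65* with no covered base. Endothelial genes had 5 of 8 and 6.52%, from 1.92% (*Tie1*) to 24.3% (*Kdr*, which RPCs are also known to express). Microglia and macrophage genes had 1 of 8 starts marked, at *P2ry12*, and 5.73%, and *C1qa* and *C1qb* with 27.43 and 26.04% share a window. Liver genes had 0 of 8 and 2.36%, and lymphocyte genes 2 of 8 and 2.85%, with *Rag1* at 34.8%. Skeletal muscle genes had 6 of 8 and 6.52%, with 0 of 8 starts under H3K4me3. With only peaks of a −log10 q-value of at least 5, the share of marked starts was 37.5% in the muscle list and 48.6% over all genes, which turns the order. Widely expressed genes had 11 of 12 and 12.2%. Of the upper 10%, these lists held 1 of 10 (pigment epithelium), 2 of 8 (endothelial), 2 of 8 (microglia), 0 of 8 (liver), 1 of 8 (lymphocyte), 0 of 8 (muscle) and 1 of 12 (widely expressed). The part of other cell types in the peaks was not tested.

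The *Hox* clusters, which pattern the body axis, had H3K4me1 near or below the all-gene level, without H3K4me3 at their starts or H3K27ac nearby. A peak lay within 1 kb of 19 of 39 starts (48.7%, against 57.6% over all genes). Of the starts, 0 of 39 were under H3K4me3 and 39 of 39 had no H3K27ac peak within 50 kb. Cover ran from 0 at *Hoxb1* and *Hoxb13* to 14.1% at *Hoxd8*. The median was 5.81%, against 6.11% over all genes, and 0 of 39 were in the upper 10%. Of 1135 olfactory receptor genes, 15 had a peak at the start, 828 had no covered base within 50 kb and 2 were in the upper 10%. These receptors are near-identical copies in part, and reads that map to several places were removed by the mapping quality filter. Its part in these values was not tested.

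Chromosome X held fewer H3K4me1 peaks per length than any autosome. It had 20.8 peaks per Mb, against 55.3 over the autosomes together and 49.1 to 64.5 in single autosomes, a ratio of 0.377. The ratio was 0.668 for protein-coding genes, 0.530 for H3K4me3, 0.288 for Otx2, 0.175 for H3K27ac and 0.143 for Neurod1. Chromosome Y held 5 H3K4me1 peaks. As the sex of the animals is not given, the part of X copy number in these densities was not tested.

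The sequence at the summits was richer in G and C and poorer in repeats than that nearby. In 101-bp windows centred on the 135798 summits, GC content was 48.3%, against 43.7% in windows 5 kb away and 41.7% over the genome. Soft-masked repeats made up 11.1% of bases at the summits, 26.7% at 5 kb and 36.4% over the genome. The E-box CAGCTG occurred on either strand in 7.12% of the summit windows against 4.29% at 5 kb, CAGATG in 9.78% against 7.91%, the AP-1 motif TGACTCA in 1.91% against 1.67%, and TAATCC in 3.97% against 4.02%. CAGCTG and CAGATG are both forms of CANNTG, and the motifs can overlap. The windows 5 kb away, here and below, were not matched to the summits in GC content or repeats. The part of base composition in the motif shares was not tested, in either direction.

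The motif of each TF was more frequent in peaks that overlapped it than 5 kb away, but E-boxes were raised in other peaks too. In the 2895 peaks outside H3K4me3 that overlapped Neurod1, 17.0% of H3K4me1 summit windows held CAGATG against 8.43% at 5 kb, and in the 12415 that overlapped Otx2, 5.20% held TAATCC against 3.87%. The peaks with Otx2 also held CAGATG in 11.0% against 8.22% and CAGCTG in 8.49% against 4.59%. Those with Neurod1 held CAGCTG in 11.7% against 5.27%, and TAATCC in 3.39% against 4.09%. The 19267 peaks outside H3K4me3 with H3K27ac and neither TF held CAGATG in 10.7% against 8.03%. In them CAGCTG was in 7.84% against 4.08%, and TAATCC in 3.20% against 3.82%. The motif lay beside the TF summits rather than at them. At the 13918 Otx2 summits inside H3K4me1 and outside H3K4me3, TAATCC occurred in 3.15% of 101-bp windows at the summit, below the 3.90% at 5 kb, but in 11.9% and 12.2% of windows 100 bp to either side. At the 3165 Neurod1 summits CAGATG occurred in 11.0% at the summit and in 30.1% and 29.0% of windows 100 bp to either side, against 8.69% at 5 kb. Within 200 bp on each side, a width chosen after this was seen, 35.7% of the Otx2 summits had TAATCC against 14.9% at 5 kb, and 73.5% of the Neurod1 summits had CAGATG against 29.9%. Around H3K4me1 summits the differences were smaller. In peaks with Neurod1, CAGATG was in 17.0% of windows at the summit and in 17.4% and 17.2% at 100 bp to either side. In peaks with Otx2, TAATCC was in 5.20% at the summit and in 6.81% at 100 bp on each side, and over all H3K4me1 summits in 3.97% against 4.61% and 4.59%.

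**Figure D5:**
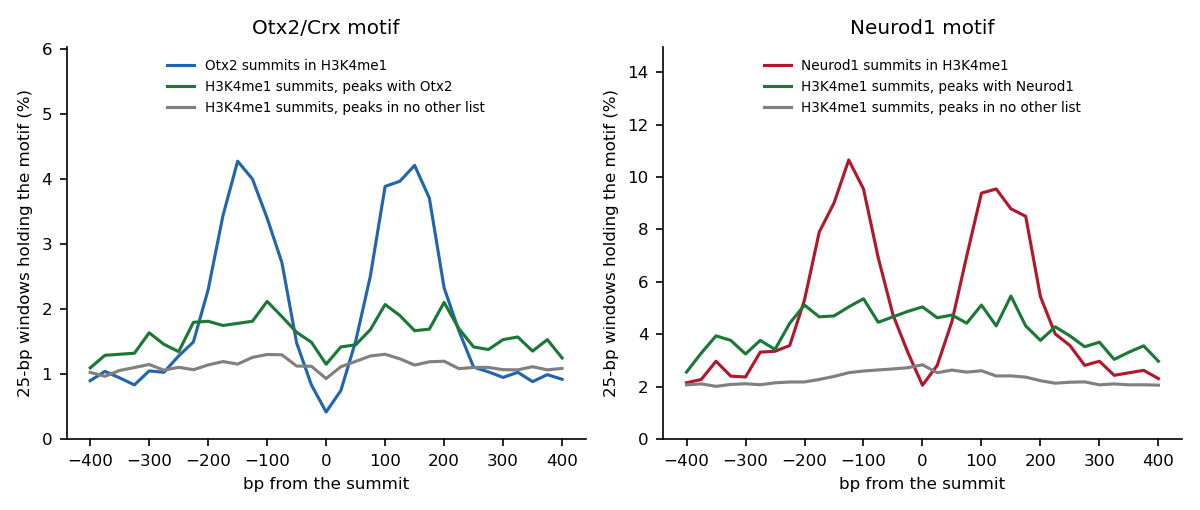
Share of 25-bp windows that hold the Otx2/Crx motif (left) or the Neurod1 motif (right, y axes in percent) by distance in bp from the summit (x axis), for TF summits inside H3K4me1 and outside H3K4me3, for H3K4me1 summits of peaks with the TF, and for H3K4me1 summits of peaks in no other list. At the Otx2 summit the share is 0.42%, against 4.28% at 150 bp before it and 4.21% at 150 bp after it.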

How the data were processed

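CUT&RUN peak lists of P2 mouse retina were used as deposited. Per the study's methods and the submitters' processing notes, the authors trimmed reads with cutadapt 3.5 and Trim Galore 0.6.4, aligned them to GRCm38 with Bowtie2, filtered them by mapping quality with SAMtools 1.12, removed duplicates with UMI-tools and called peaks with MACS2 in its paired-fragment mode on all libraries of a target together against IgG at a q-value of 0.05, leaving out ENCODE blacklisted regions. Enrichment over IgG is a fold ratio deposited by the authors for every peak, its significance is the −log10 q-value deposited by the authors, and neither was rescaled. The summit position was taken from the same lists. The 2 H3K4me1 libraries are pooled, so depth and replicate spread are unknown and no test was run. The squirrel lists were only counted.

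Overlaps and distances were computed with numpy 2.4.6 and pandas 2.3.3 under Python 3.11.15, by code checked on 3000 simulated intervals against bedtools 2.31.1 with 0 differences. An overlap is at least 1 bp. Genes, exons and starts (the 5′ end of the gene) are those of the 21938 protein-coding genes of GENCODE M21, and RefSeq intervals matched 95.0% of them by symbol. Sequence came from RefSeq GRCm38.p6. Medians have order-statistic and shares Wilson intervals at 95%. The members and gene lists were chosen with earlier results of these data known. Named genes are the first 15 by peaks, bases, bases within 50 kb of the start and covered share (genes of at least 5 kb), the genes nearest the 15 strongest and 15 widest peaks, and list members, the 2 highest and 2 lowest first. Alternatives were peaks with −log10 q of at least 5 or a fold of at least 2.5, peaks within 500 bp merged, other starts, overlaps, intervals and windows. RefSeq intervals and the 200-bp motif window were added after seeing the data. Some genes and 1 region that these rules name are not reported here.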

Additional observations from a re-analysis of the deposited data

How the results depend on the processing

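No paired analysis was possible because the result comes from no test, and no replicate could be left out of a pooled list. Of 60 values recomputed, 18 stayed within their counting interval or within 1.5 times a count and 42 moved. Restricting the list to a −log10 q-value of 5 or more, the median width was 1263 bp and the median fold 5.60. The share of summits over 10 kb from a start was 74.8%, the overlap shares were 14.6% (H3K4me3), 28.2% (H3K27ac), 20.8% (Otx2) and 3.89% (Neurod1), and 35.7% of H3K4me3 summits were covered. With a fold of at least 2.5 they were 879 bp, 4.46, 6.89% within 1 kb and 75.4% over 10 kb, 22.5% (H3K27ac), 16.4% (Otx2), 2.95% (Neurod1) and 38.3%. Merging peaks within 500 bp gave 1043 bp, 4.596 and 42.2% of H3K4me3 summits covered. With the starts of all transcripts, 12.04% lay within 1 kb and 63.7% over 10 kb. An overlap of at least 250 bp gave 9.49%, 18.4%, 12.1% and 2.11% for H3K4me3, H3K27ac, Otx2 and Neurod1, and the summit inside the other peak 6.14%, 15.5%, 8.82% and 1.40%. By density, 0 of the first 15 genes by peaks and 0 by bases remained. With RefSeq intervals, 12 and 13 of 15 remained. The ratio of motif shares at the summit and 5 kb away was 0.988 (TAATCC), 1.24 (CAGATG), 1.66 (CAGCTG) and 1.14 (TGACTCA). It was 0.934, 1.28, 1.71 and 1.21 within 25 bp, 1.04, 1.27 and 1.73 for the first 3 motifs outside H3K4me3, and 1.08, 1.15, 1.53 and 1.08 within 200 bp. The TAATCC ratio thus turned from below 1 to above it by setting. Among the gene lists, cover within 10 kb of the start put rod phototransduction genes above the all-gene median (20.4% against 8.11%) and skeletal muscle genes below it (7.94%), and a −log10 q-value of 5 or more put *Hox* genes above it (5.30% against 5.11%). For marked starts, that q-value put muscle below all genes (37.5% against 48.6%), and 2.5 kb in place of 1 kb put endothelial genes below them (62.5% against 63.98%). Read depth is not known, so a missing peak sets no limit on the level of the mark.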

Other observations

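Some stretches of several Mb held no H3K4me1 peak. The longest stretch between neighbouring peaks, 12.2 Mb on chromosome X, held 49 protein-coding genes, none of them an olfactory or vomeronasal receptor gene. One of 4.13 Mb on chromosome 7 held 105, of which 65 were vomeronasal receptor genes, and one of 3.30 Mb on chromosome 17 held 58, of which 40 were olfactory receptor genes. A pair of stretches on chromosome 12, of 3.32 and 3.004 Mb, held 2 genes each. Elsewhere neighbouring peaks were close, with a median gap of 4460 bp, and 26.7% of gaps were at most 1 kb. Of the 100-kb windows without a peak, 34.9% overlapped a protein-coding gene, against 69.0% of the others. The part of read mapping in these stretches was not tested.

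At a few genes H3K27ac peaks outnumbered H3K4me1 peaks. Within 50 kb of the start of *P2ry12*, a microglial purinergic receptor, there were 24 H3K27ac peaks and 2 H3K4me1 peaks. *Tox2* had 36 and 18, but its H3K4me1 peaks were broad. At *Meis2* and *Nfia*, 33.66% and 26.97% of the bases were covered by H3K4me1 with 0 H3K27ac peaks. These genes were picked after their values were seen.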
